A study of Mus musculus with 11 samples.

Results

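Histone transcripts were followed in eosinophils sorted from the blood of tumour-bearing mice. The set holds every gene of the count table that is annotated as protein coding and whose symbol starts with H1f, H2ac, H2bc, H2ax, H2az, H3c, H3f, H4c or H4f, or with the older prefixes Hist1h to Hist4h. Histone genes with other symbols, such as H2aj, H2aw, H2bu2 and the macroH2A genes, are outside it. It has 74 of the 55486 genes in the table. Of these, 10 encode linker histones and 64 encode core histones, namely 20 H2A, 17 H2B, 14 H3 and 13 H4 genes. The genes lie on 7 chromosomes, with 54 of them on chromosome 13. Membership used symbols only and no measured value.

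Nucleosomes are built from an octamer of core histones, and the linker histone H1 binds the DNA where it enters and leaves the nucleosome. Most histone genes are replication-dependent: they lie in clusters, are transcribed in S phase, and give messages that end in a conserved stem-loop in place of a poly(A) tail. Replication-independent histones, such as H3.3, H2A.Z and the linker histone H1.0, are made throughout the cell cycle from ordinary polyadenylated messages and are the typical supply of cells that have stopped dividing, as blood eosinophils have. Smart-seq2, the full-length RNA-seq method used here, primes cDNA synthesis on poly(A), so messages that end at the stem-loop are poorly captured, and a count reports mainly the polyadenylated form of a gene.

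The treated group was 7 mice of the FVB/N strain whose mammary tumours had given rise to metastatic disease. They received cisplatin, a DNA-crosslinking drug, together with anti-PD1 and anti-CTLA4, which block checkpoint receptors of T cells. The control group was 4 FVB/N mice with the same disease, given control antibody alone, so the effects of the drug and of the antibodies cannot be told apart. At day 21 of treatment blood was drawn from the heart and its red cells were lysed. The eosinophil gate took live cells that were CD45+, CD3-, CD11b+, Ly6g low and F4/80+, with a high side scatter. Each library came from its own mouse, and the age of the mice was not given in the labels. The library totals were 5356118 to 8016658 counts in treated and 3733156 to 6721060 counts in control libraries.

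Cell type markers were read beside the histones. The 11 eosinophil markers, Siglecf, Ccr3 and Il5ra among them, were detected in the series and summed to between 3822 and 10844 counts per 1000000 counts of the library (CPM) in treated libraries and to 11185, 9531, 4956 and 4632 CPM in control 1 to control 4. The 12 neutrophil markers summed to between 5815 and 14047 CPM in treated mice and between 6877 and 12842 CPM in control libraries. Haemoglobin took 1.16% to 4.42% of the counts in treated libraries. In control 1 to control 4 it took 1.06%, 0.165%, 28.2% and 20.1%. The 12 platelet markers, none of which was at 0 throughout, summed to 889, 1476 and 3458 CPM in treated libraries (lowest, median and highest), and to 369, 179.7, 8231 and 7167 CPM in control 1 to control 4. Monocyte and macrophage markers, 12 in all, summed to 2046, 7816 and 17762 CPM in treated libraries and to 2176, 973, 12425 and 2751 CPM in control 1 to control 4. For the 11 B cell markers the sums were 1415, 2891 and 6798 CPM in treated libraries and 3334, 2070.4, 549.9 and 1152 CPM in control 1 to control 4. The part of these cells in the histone values was not tested. Control 3 and control 4 thus stood apart in red cell and platelet transcripts, in depth (3733156 and 3923906 counts) and in genes detected (10775 and 11263, against 12639 to 15557 in the other 9 libraries). Their eosinophil marker sums were below those of control 1 and control 2 and inside the treated range. The fold changes of the tested histone genes are therefore given with and without these 2 libraries. In the header of the table the library identifiers hold the digits 19 for the treated and 20 for the control libraries. A batch marked by those digits, if any, and the treatment cannot be told apart. The identifiers of the 4 controls and of treated 1 also hold the letters KDV, while those of the other 6 treated libraries hold VIS. A fit with these letters as a covariate thus rests on treated 1 alone against the 4 controls.

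Of the 74 histone genes, 55 had at least 1 count, 14 had a count in all 11 libraries, and 19 were at 0 throughout. A count of 0 allows up to 3 counts, which is 0.374 to 0.804 CPM depending on the library, counting error only. The filter on low counts kept 20 histone genes, among them 3 of 10 linker genes, all 5 core variant genes (H2ax, H2az1, H2az2, H3f3a and H3f3b) and 12 of the 59 replication-dependent core genes. The others were sparse: none of the 54 exceeded 78 counts over all libraries, and none exceeded 34 counts in a library. The linker gene H1f5 had those 34 counts in control 3, 1 in treated 1, 5 in treated 2 and 0 elsewhere. H1f3 had 33 of its 45 counts in treated 1. Scattered counts of this kind are not levels, and no gene below the filter was tested. Their counts do enter the summed levels and shares given below. H1f10 had 0 counts in every library.

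The stem-loop was looked for in the annotated transcripts (GENCODE M21, build GRCm38), because where it lies in a transcript bears on which messages poly(A) priming can capture. The 26 bases shown for each gene are the 16-base stem-loop in capitals with 5 flanking bases on each side, all in the 3' UTR. They are given as examples for a linker gene, an H2A gene, H4 genes that differ in their pattern between the control libraries, and the variant gene H2ax.
H1f2, chr13:23739507-23739532, + strand: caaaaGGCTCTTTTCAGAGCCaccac
H2ac6, chr13:23683472-23683497, - strand: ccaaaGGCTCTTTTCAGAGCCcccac
H4c9, chr13:22040961-22040986, - strand: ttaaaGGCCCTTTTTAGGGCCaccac
H4c3, chr13:23698084-23698109, - strand: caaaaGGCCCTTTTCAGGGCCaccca
H4c8, chr13:23531453-23531478, + strand: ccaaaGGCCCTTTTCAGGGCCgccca
H4c14, chr3:96262934-96262959, - strand: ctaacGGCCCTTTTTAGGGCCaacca
H4f16, chr6:136803993-136804018, - strand: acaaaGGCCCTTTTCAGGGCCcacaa
H2ax, chr9:44335235-44335260, + strand: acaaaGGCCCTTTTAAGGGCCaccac

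A stem-loop was found in an annotated transcript of 43 of the 64 replication-dependent genes (the 59 core genes and H1f1 to H1f5) and in 2 of the other 10 histone genes, H2ax and H1f6. By the same search it was found in 0.175% of 58706 protein-coding transcripts of other genes. Counted by gene, 54 of 21827 other genes (0.247%) had it in a transcript. The most common 16 bases, those of H1f2 and H2ac6, were shared by 24 genes, and the 16 bases of H4c3, H4c8 and H4f16 by 7.

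The annotated transcripts were of 3 kinds, and the counts were spread unequally among them. In 20 genes the transcript went on for 100 bases or more past the stem-loop. These genes held 62.0% of the counts of the 64 genes, their median was 74 counts over all libraries, and 10 of the 20 passed the filter. In 23 genes the transcript ended within 100 bases of the stem-loop. They held 2.04% of the counts with a median of 4, and 2 passed the filter. The 21 genes with no stem-loop in a transcript held 36.0% of the counts, also with a median of 4, and 2 passed. Nearly all of that share was H2bc4, with 7670 counts over all libraries, whose annotated transcript ends without a stem-loop. Some annotated transcripts of this kind were short, such as 312 bases for H4c12 and 381 bases for H2bc13. An annotated transcript that stops before a stem-loop also gives no match, so this kind does not mean that the gene lacks one. The transcript of H1f2 went on for 840 bases past its stem-loop, and that of H4c9 for 330 bases. Transcript length differs with the kind of transcript, and its part in these counts was not tested.

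**Figure D1:**
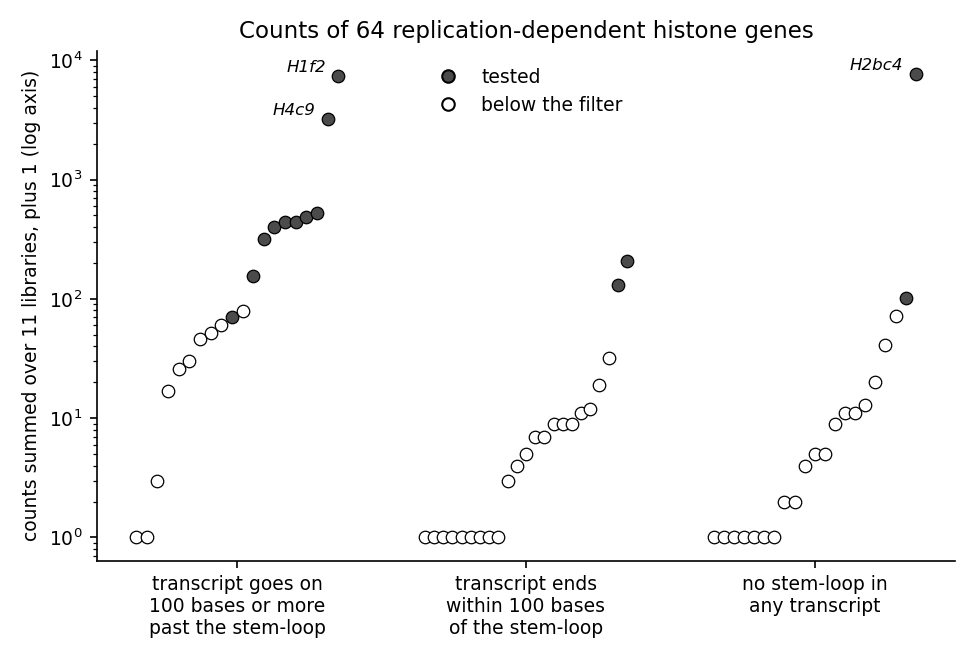
Counts summed over the 11 libraries, plus 1, on a log axis, for the 64 replication-dependent histone genes grouped by where their annotated transcript ends. Each point is a gene, filled where it passed the filter on low counts. The 20 genes whose transcript goes on past the stem-loop have a median of 74 counts and include H1f2 and H4c9. H2bc4 stands above the other genes with no stem-loop in an annotated transcript.

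Histone genes resemble each other in sequence, and the way shared reads were counted is not given in the sources used here. As a guide, each gene's transcripts were cut into windows of 50 bases, and the share of windows that also occurs in another gene was taken. It was 0% for H1f0 and H2az2, 1.01% for H4c14, 6.86% for H3f3b, 8.54% for H1f2, 28.9% for H4c9 and 30.1% for H2bc4. It reached 43.2% for H2ac8, 45.8% for H4c8, 52.3% for H2ac15 and 85.6% for Hist1h4n, so the values of those genes are uncertain. H1f4 and H2bc6 overlap on the same strand and share windows (32.0% of those of H1f4), and their counts may have been split. H3f3a overlaps the antisense gene H3f3aos, which had 136 counts over the treated and 12 over the control libraries, and without a stated strand setting reads of the overlap cannot be assigned.

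In the comparison of treated with control mice the tested histone genes had mostly lower values in treated libraries, but no gene passed the test. Of 11389 genes, the quasi-likelihood test of edgeR, with p-values adjusted after Benjamini-Hochberg to a threshold of 0.05, called 0 higher and 0 lower (0.0% each), and thus 0 histone genes. At an unadjusted p under 0.05 it had 421 genes higher (3.7%) and 356 lower (3.13%). Of the 20 histone genes, 0 were among the higher and 6 among the lower. The log2 fold change (treated minus control) was below 0 for 17 of 20 histone genes, against 48.2% of all genes tested. Its median was -1.20 over the 20 histone genes and 0.03 over all genes. DESeq2 called 57 genes higher (0.441%) and 22 lower (0.17%) of 12933 with an adjusted p. Of the histone genes it called 1, H1f2, as lower (adjusted p = 0.0327).

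Much of that shift rested on control 3 and control 4. Without them edgeR called 0 histone genes and 0 genes in all, higher or lower (0.0% each of 13012). At an unadjusted p under 0.05 there were 3 histone genes higher, against 6.41% of all genes, and 2 lower, against 2.16%. The log2 fold change was below 0 for 10 of the 20 histone genes, against 44.9% of all genes, and the median was -0.00 over the histone genes and 0.10 over all genes. In 9 of the 20 histone genes control 3 and control 4 both lay above all other 9 libraries, which was so for 5.36% of all genes, and in 0 they both lay below all others, against 6.01% of all genes. The 9 genes were H1f2, H3f3a and the replication-dependent genes H2bc4, H4c9, H4c3, H4c8, Hist1h4n, H2ac6 and H2ac8. No histone gene had all treated libraries above all controls (0.509% of all genes) or all treated below all controls (0.43%). RNA came from sorted pools of cells, so fewer cells of a type and less RNA per cell cannot be told apart.

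**Figure D2:**
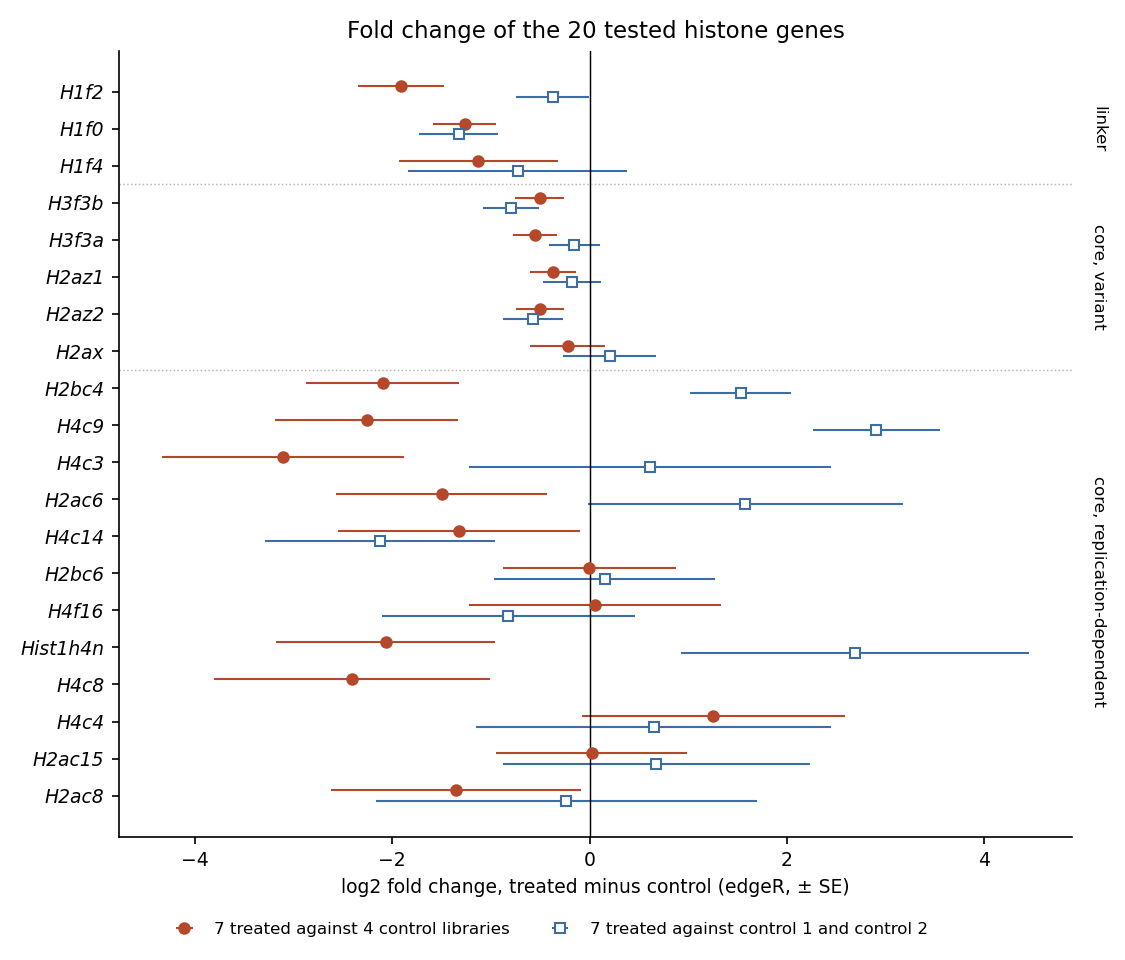
Fitted log2 fold change, treated minus control, with its standard error (edgeR) for the 20 tested histone genes, from all 4 control libraries (filled circles) and from control 1 and control 2 alone (open squares). H1f0 and H3f3b lie below 0 in both, while H2bc4 and H4c9 lie below 0 with all controls and above 0 with control 1 and control 2. For H4c8, which had 0 counts in control 1 and control 2, only the value from all controls is drawn.

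The linker genes differed among themselves in how they depended on those controls. H1f0 (ENSMUSG00000096210, chr15:79028450-79030504, + strand) encodes H1.0, the replication-independent linker histone known for accumulating in differentiated, non-dividing cells. It had 28.3, 47.0 and 105 CPM in treated libraries (lowest, median and highest), and 141, 147, 153 and 96.0 CPM in control 1 to control 4. These CPM and those of other single genes below are scaled with TMM, a normalization of library sizes. All 4 controls were high, and 6 of 7 treated libraries lay below the lowest control. Treated 4, at 105 CPM, overlapped the controls. The means were 55.9 ± 26.7 CPM over the 7 treated (SD) and 134 ± 26.1 CPM over the 4 control libraries (SD), a log2 fold change of -1.27 ± 0.32 (SE). It did not pass the test (edgeR, Benjamini-Hochberg adjusted p = 0.626). DESeq2 gave an adjusted p of 0.0836.

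The H1f0 difference had nearly the same size without control 3 and control 4, at -1.33 ± 0.40 on the log2 scale (edgeR, adjusted p = 0.328). Leaving out any library in turn gave -1.50 to -1.12. Among the libraries with the header letters KDV, treated 1 had 28.3 CPM and the controls 96.0 to 153 CPM. With the letters as a covariate the log2 fold change was -2.25, which rests on treated 1 alone against the controls. On the deposited coordinates H1f0 overlaps the gene Gm49544.

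H1f2 (ENSMUSG00000036181, chr13:23738808-23740367, + strand) encodes the replication-dependent linker histone H1.2. It had 46.9, 67.5 and 131 CPM in treated libraries, and 70.5, 123, 494 and 406 CPM in control 1 to control 4. Control 1 and control 2 lay inside the treated range, while control 3 and control 4 lay above every other library. Without those 2 controls its log2 fold change was -0.37 ± 0.37, against -1.91 ± 0.44 with them (edgeR, adjusted p = 0.849 and 0.626). In control 3 and control 4 the summed levels of platelet markers and haemoglobin, given above, were high as well, and their part in the H1f2 values was not tested. H1f4, which encodes H1.4, was rare, at 3.57 ± 1.45 CPM over the 7 treated (SD) and 7.83 ± 4.51 CPM over the 4 control libraries (SD). Its log2 fold change was -1.13 ± 0.81, and -0.73 ± 1.11 without control 3 and control 4 (edgeR, adjusted p = 0.864 and 0.935).

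The linker pool had a different make-up in the pairs of controls. Of all linker counts in a library, H1f0 took 26.7%, 41.4% and 58.1% in treated libraries (lowest, median and highest), and 65.9%, 52.6%, 23.0% and 18.6% in control 1 to control 4. The treated libraries lay between the pairs, apart from an overlap of treated 4 and treated 6 with control 2. H1f2 made up most of the remainder, with 40.5% to 70.9% in treated libraries and 33.0% to 78.8% in controls. The 10 linker genes summed to 91.1, 151 and 208 CPM of the library total in treated libraries and to 251, 306, 446 and 361 CPM in control 1 to control 4. All treated libraries were below all controls in this sum, whose larger part was H1f0 in control 1 and control 2 and H1f2 in control 3 and control 4.

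The regions before the RefSeq starts of these 2 linker genes (RefSeq, GRCm38.p6) are shown because the genes differ in their control by the cell cycle. Each is the 250 bases before the start, 5' to 3', with matches to the searched motifs in capitals.
H1f2, chr13:23738557-23738806, + strand: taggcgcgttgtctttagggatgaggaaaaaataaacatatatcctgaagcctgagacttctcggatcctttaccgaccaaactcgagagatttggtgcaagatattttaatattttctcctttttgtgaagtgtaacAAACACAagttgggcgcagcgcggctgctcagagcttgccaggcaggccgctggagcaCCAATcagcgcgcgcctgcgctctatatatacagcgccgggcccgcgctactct
H1f0, chr15:79027962-79028211, + strand: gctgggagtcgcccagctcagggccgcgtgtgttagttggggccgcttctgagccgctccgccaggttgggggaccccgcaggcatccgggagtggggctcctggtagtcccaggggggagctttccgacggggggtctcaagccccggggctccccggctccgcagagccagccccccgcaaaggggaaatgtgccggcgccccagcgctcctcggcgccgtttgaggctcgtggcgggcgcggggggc

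The motifs searched on both strands were the H1 box AAACACA, the octamer ATTTGCAT, the CCAAT box and the TATA box in the form TATAAA, each counted whether or not it overlapped another. H1f2 held AAACACA, starting 112 bases before the start, and CCAAT, starting 54 bases before it. H1f0 held none of the 4 motifs in this window. Its window ends at 79028211, before the gene start of 79028450 in the count table, and the bases between were not searched. The H1f2 window ends at 23738806, close to its gene start of 23738808, so the windows of the 2 genes are not placed alike. The absence of a motif in the H1f0 window therefore does not describe the bases next to that gene start. Promoter sequence was matched for 62 of the 74 histone genes. AAACACA was present in 4 of 5 promoters of H1f1 to H1f5, against 6.25% of 32851 promoters of all genes. CCAAT was present in all 5 of them, in 14 of 14 replication-dependent H2A, 13 of 13 H2B, 8 of 10 H3 and 3 of 12 H4 promoters, against 33.8% of all promoters. ATTTGCAT was present in 6 of 14 H2A and 7 of 13 H2B promoters and in 0 of the H3 and H4 ones, against 1.60% of all promoters. TATAAA was present in 4 of 5 promoters of H1f1 to H1f5, against 12.4% of all promoters. It was present in 6 of 14 replication-dependent H2A, 6 of 13 H2B, 4 of 10 H3 and 6 of 12 H4 promoters. Core variant promoters held these motifs too, with CCAAT in 4 of 4 and AAACACA, ATTTGCAT and TATAAA in 1 of 4 each.

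Core variants carried most of the histone counts. Per kilobase of exon, H3f3b was the most abundant histone gene, at a mean of 421 CPM per kilobase in treated and 597 in control libraries. Next among the variants were H2az1 (105 and 136 CPM per kilobase in treated and control libraries), H3f3a (72.1 and 106), H2az2 (53.8 and 76.2) and H2ax (15.5 and 18.2). All 5 had a log2 fold change below 0, with a median of -0.50, and 0 of 5 passed the test.

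H3f3b and H3f3a encode the same protein, the replication-independent histone H3.3, from different genes. H3f3b (ENSMUSG00000016559, chr11:116021912-116027962, - strand) had 779, 1181 and 1645 CPM in treated libraries, and 2364, 2111, 1210.5 and 1427 CPM in control 1 to control 4. All 7 treated libraries lay below control 1 and control 2, but 3 of them lay above control 3. The log2 fold change was -0.50 ± 0.25, and -0.80 ± 0.28 without control 3 and control 4 (edgeR, adjusted p = 0.734 and 0.452). With the header letters as a covariate, which leaves treated 1 alone against the controls, it was -1.19.

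H3f3a (ENSMUSG00000060743, chr1:180800832-180813943, - strand) had 212, 258 and 305 CPM in treated libraries, and 219, 360.0, 458 and 447 CPM in control 1 to control 4. Its order among the controls was the opposite of that of H3f3b, with control 3 and control 4 the highest of all libraries. It had a log2 fold change of -0.55 ± 0.22, and -0.15 ± 0.26 without control 3 and control 4 (edgeR, adjusted p = 0.634 and 0.946). The ratio of H3f3b to H3f3a counts, which no scaling affects, was 2.99 to 7.12 in treated libraries, with a median of 5.07, and 10.8, 5.86, 2.64 and 3.19 in control 1 to control 4. Treated and control libraries overlapped in this ratio.

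H2az1 and H2az2 encode the forms of H2A.Z, a variant found at promoters and enhancers. H2az1 had 130.0, 173 and 239 CPM in treated libraries and 165, 271, 322 and 205 CPM in control 1 to control 4. H2az2 had 63.5, 92.2 and 114 CPM in treated libraries and 91.8, 177, 101 and 128 CPM in control 1 to control 4. The groups overlapped for both genes, and their log2 fold changes were -0.37 ± 0.23 and -0.50 ± 0.24 (edgeR, adjusted p = 0.830 and 0.731). Without control 3 and control 4 they were -0.18 ± 0.30 for H2az1 and -0.57 ± 0.30 for H2az2 (edgeR, adjusted p = 0.942 and 0.613). H2ax encodes H2A.X, which is phosphorylated around DNA breaks and whose gene is known to give both stem-loop and polyadenylated messages. It had 21.5 ± 5.0 CPM over the 7 treated (SD) and 25.1 ± 9.04 CPM over the 4 control libraries (SD), a log2 fold change of -0.22 ± 0.38 with all controls and 0.20 ± 0.47 without control 3 and control 4 (edgeR, adjusted p = 0.952 and 0.966).

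**Figure D3:**
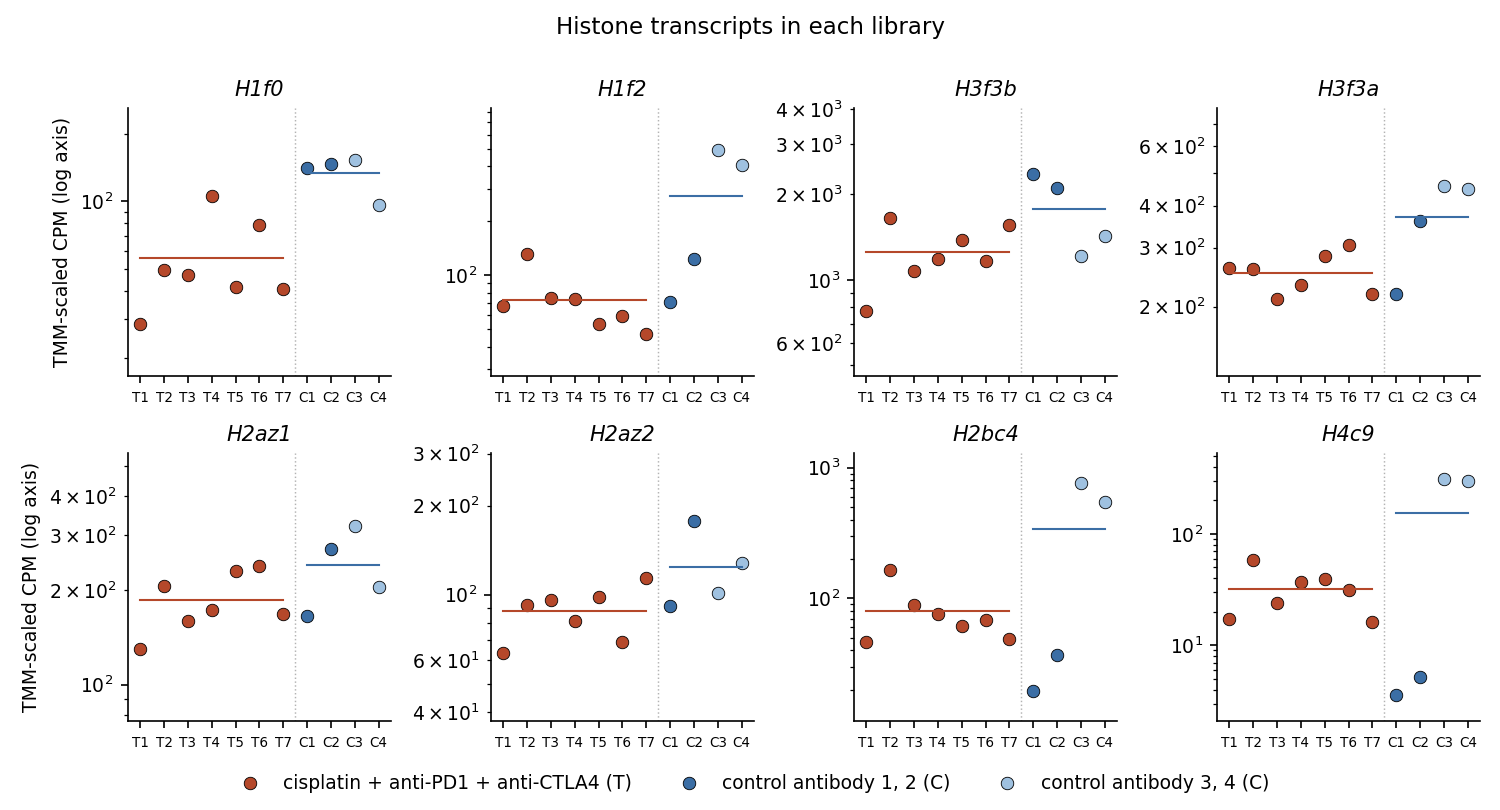
TMM-scaled CPM on log axes, with an axis range of its own in each panel, for 8 histone genes in each treated (T1 to T7) and control (C1 to C4) library, with the mean of each group as a line. H1f0 is high in all 4 controls, while H1f2, H2bc4 and H4c9 are high in C3 and C4, and H2bc4 and H4c9 are lower in C1 and C2 than in every treated library.

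In replication-dependent core genes the treated libraries lay between the pairs of controls. Of the counts in a library's core histone genes, the 59 replication-dependent genes took 3.91%, 8.38% and 10.7% in treated libraries (lowest, median and highest), and 2.91%, 2.74%, 35.6% and 31.3% in control 1 to control 4. The 95% Wilson intervals of these shares, which cover counting error only, ran from 3.62% to 4.23% in the lowest treated library and from 2.70% to 3.13% in control 1. All 7 treated libraries were thus above control 1 and control 2 and below control 3 and control 4. The mean share was 7.68% ± 2.24 over the 7 treated (SD) and 18.2% ± 17.8 over the 4 control libraries (SD). Treated minus control it was -10.5 percentage points with all controls and 4.85 with control 1 and control 2 alone. This share needs no scaling between libraries.

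In summed CPM the order was less complete. The 59 genes summed to 82.3, 141 and 279 CPM of the library total in treated libraries and to 100.3, 90.7, 787 and 715 CPM in control 1 to control 4. Treated 7, at 82.3 CPM, lay below control 1 and control 2, the other 6 treated libraries lay above them, and all 7 lay below control 3 and control 4. The 5 variants ran the other way between the controls, at 1265, 2006 and 2322 CPM in treated libraries and 3347, 3215, 1422 and 1567 CPM in control 1 to control 4. All 74 histone genes together took 0.149% to 0.279% of the counts in treated libraries, and 0.370%, 0.361%, 0.265% and 0.264% in control 1 to control 4. Only treated 2, at 0.279%, was above the lowest control. These sums and shares are of library totals that include haemoglobin, 28.2% and 20.1% in control 3 and control 4. Haemoglobin was 4.42% or less in the other libraries, so it lowers the values of those 2 controls more.

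**Figure D4:**
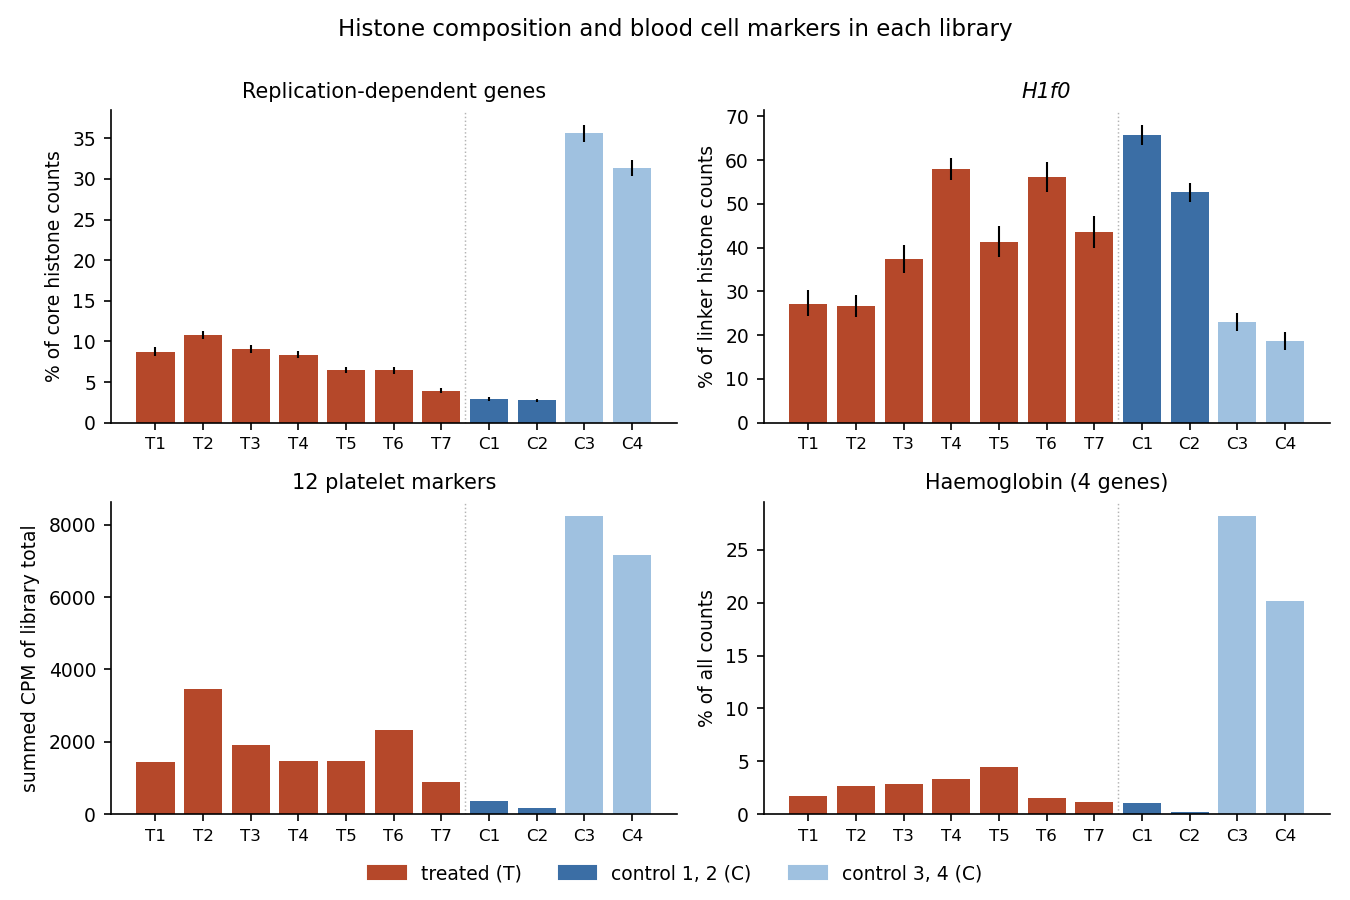
For each treated (T1 to T7) and control (C1 to C4) library, the replication-dependent share of core histone counts and the share of H1f0 in linker counts (upper panels, with 95% Wilson intervals), and the summed CPM of 12 platelet markers and the haemoglobin share of all counts (lower panels). The replication-dependent share is 35.6% and 31.3% in C3 and C4, 2.91% and 2.74% in C1 and C2, and 3.91% to 10.7% in the treated libraries. The platelet and haemoglobin panels both have a like order.

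H2bc4 (ENSMUSG00000018102, chr13:23684199-23692908, + strand), an H2B gene, was the most abundant replication-dependent gene, with 52.5% of the counts of the 59 genes in treated and 54.4% in control libraries. The control share was 33.0% in control 1 and control 2 together and 59.1% in control 3 and control 4 together. It had 46.1, 68.2 and 165 CPM in treated libraries, and 19.5, 37.1, 756 and 548 CPM in control 1 to control 4. Every treated library was above control 1 and control 2 and below control 3 and control 4. The log2 fold change was -2.10 ± 0.77 with all controls and 1.53 ± 0.51 without control 3 and control 4 (edgeR, adjusted p = 0.626 and 0.410), so its sign depended on those libraries.

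H4c9 (ENSMUSG00000060639, chr13:22040636-22041362, - strand), an H4 gene, came next with 21.3% of those counts in treated and 23.6% in control libraries. Its control share was 5.15% in control 1 and control 2 together and 27.7% in control 3 and control 4 together. It had 16.2, 31.7 and 58.8 CPM in treated libraries, and 3.55, 5.24, 311 and 296 CPM in control 1 to control 4. The order was that of H2bc4, with a wider gap between the controls. Its log2 fold change was -2.26 ± 0.93 with all controls and 2.91 ± 0.64 without control 3 and control 4 (edgeR, adjusted p = 0.671 and 0.116).

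Rarer H4 genes included some with the same order. Hist1h4n had 0.741, 2.01 and 4.74 CPM in treated libraries, and 0.380, 0.283, 16.4 and 19.99 CPM in control 1 to control 4. H4c8 had 0.274, 1.30 and 3.16 CPM in treated libraries, and 0, 0, 10.4 and 16.4 CPM in control 1 to control 4. Against a floor of 3 counts over control 1 and control 2 the treated mean of H4c8 was at least 6.16-fold higher, and with H4c8 at that bound the median log2 fold change without control 3 and control 4 stayed 0.66 over the 12 replication-dependent core genes. With all controls that median was -1.43. H4c3 had 0, 1.00 and 7.58 CPM in treated libraries and 1.27, 2.97, 33.7 and 72.7 CPM in control 1 to control 4, so its treated libraries spread across control 1 and control 2. Their log2 fold changes with all controls were -2.07 for Hist1h4n, -2.41 for H4c8 and -3.10 for H4c3 (edgeR, adjusted p from 0.634 to 0.805). Without control 3 and control 4 the sign turned, at 2.69 ± 1.77 for Hist1h4n and 0.61 ± 1.83 for H4c3 (edgeR, adjusted p = 0.686 and 0.976).

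Other replication-dependent genes did not share the pattern. H4c14, an H4 gene on chromosome 3, had 0, 4.11 and 10.4 CPM in treated libraries, and 24.7, 14.4, 0 and 4.36 CPM in control 1 to control 4. All 7 treated libraries were below control 1 and control 2, the reverse of H4c9. H4c14 and H4f16, an H4 gene on chromosome 6, took 23.6% and 11.9% of the replication-dependent core counts in control 1 and control 2 together, where H4c9 took 5.15%. The H4f16 share rested mostly on control 1, with 129 counts there and 21 in control 2, where H4c9 had 28 and 37. In treated libraries H4f16 had 4 to 97 counts. In control 3 and control 4 together H4c9 took 27.7% and H2bc4 59.1%. H4c14 had a log2 fold change of -1.32 ± 1.23 with all controls and -2.13 ± 1.17 without control 3 and control 4 (edgeR, adjusted p = 0.917 and 0.633). For H4f16 it was 0.06 ± 1.28 and -0.83 ± 1.28 (edgeR, adjusted p = 0.997 and 0.935).

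Among H2A genes, H2ac6 had 1.18, 5.53 and 7.97 CPM in treated libraries and 3.17, 0, 15.2 and 35.3 CPM in control 1 to control 4, a log2 fold change of -1.50 ± 1.07 with all controls and 1.58 ± 1.59 without control 3 and control 4 (edgeR, adjusted p = 0.863 and 0.854). H2ac8 and H2ac15 were at 3.61 CPM or less in every library. The log2 fold change was -1.35 for H2ac8 and 0.02 for H2ac15 with all controls, and -0.23 and 0.67 without control 3 and control 4. The second tested H2B gene, H2bc6, had 6.28 ± 5.63 CPM over the 7 treated (SD) and 6.31 ± 3.25 CPM over the 4 control libraries (SD), a log2 fold change of -0.00 with all controls and 0.15 without control 3 and control 4. Of the tested genes H4c4 had the highest fold change, 1.25 ± 1.34 on the log2 scale, from 2.57 ± 2.62 CPM over the 7 treated (SD) and 1.04 ± 1.48 CPM over the 4 control libraries (SD) (edgeR, adjusted p = 0.931). Without control 3 and control 4 it was 0.65 ± 1.80 (edgeR, adjusted p = 0.973).

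Families contributed unequally. Per kilobase of exon the replication-dependent H2B genes summed to 79.1 ± 37.8 CPM over the 7 treated (SD) and 215 ± 215 CPM over the 4 control libraries (SD), and the H4 genes to 67.4 ± 26.8 and 206 ± 204 CPM. In control 1 to control 4 the H2B sums were 25.3, 40.8, 452 and 343 CPM per kilobase and the H4 sums 33.5, 26.8, 356 and 409. The treated means thus lay above control 1 and control 2 and below control 3 and control 4. The replication-dependent H2A genes summed to 8.60 ± 1.80 and 12.3 ± 6.60 CPM per kilobase in treated and control libraries, and the H3 genes to 3.26 ± 1.71 and 3.33 ± 2.05. None of the 12 replication-dependent H3 genes passed the filter on low counts, so the H3 sums are made of scattered counts and do not compare levels. The H3.1 and H3.2 proteins these genes encode pair with H4 in nucleosomes assembled in S phase. The H3 genes summed to 6.0, 3.48, 1.07 and 2.75 CPM per kilobase in control 1 to control 4.

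**Figure D5:**
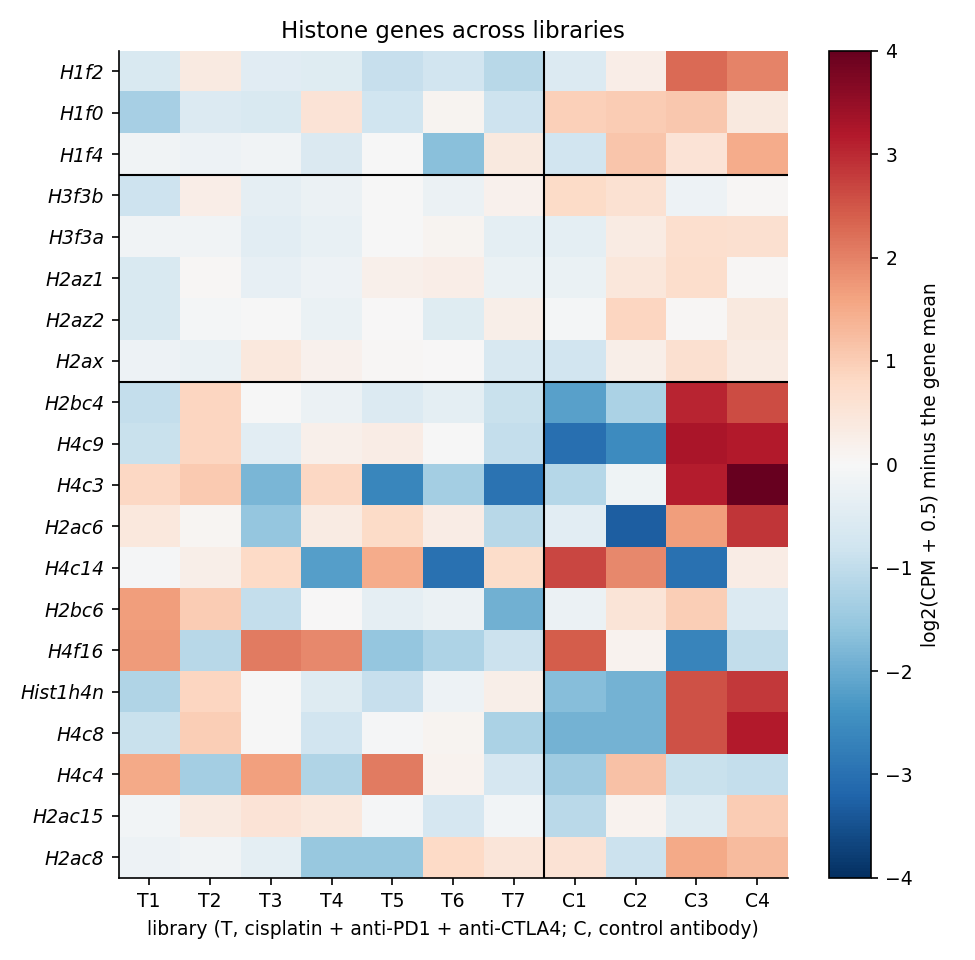
log2(CPM + 0.5) of each tested histone gene minus its mean over the 11 libraries, for treated (T1 to T7) and control (C1 to C4) libraries, with linker genes in the top rows, core variants in the middle and replication-dependent core genes below. The colour scale ends at -4 and 4. C3 and C4 are high in 7 of the 12 replication-dependent core genes and in H1f2, while H4c14 is high in C1 and C2.

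Within the treated group, treated 2 was the highest library for 7 of the 20 tested histone genes, against 11.8% of all genes. These were H1f2, H3f3b, H2bc4, H4c9, H4c3, H4c8 and Hist1h4n. Treated 2 also had the highest platelet marker sum of the treated libraries, 3458 CPM. Across the 7 treated libraries the log2 level of H2bc4 had a correlation with that of the platelet markers of Pearson's r = 0.842 and Spearman's rho = 0.857 (exact permutation p = 0.0228 and 0.0238, adjusted p = 0.304 and 0.317 over 40 relations, those of 20 genes with platelet markers and with haemoglobin). For H1f2 r was 0.820 and rho 0.714 (exact permutation p = 0.0315 and 0.0881, adjusted p = 0.315 and 0.440), and for H4c8 r was 0.929 and rho 0.964 (exact permutation p = 0.00317 and 0.00278, adjusted p = 0.127 and 0.111). None passed the adjustment. Without the 2 libraries farthest from the median of the platelet level, r was 0.427 for H2bc4, -0.07 for H1f2 and 0.715 for H4c8, so the first 2 relations rested on those libraries. With haemoglobin r was 0.425 for H2bc4 and 0.318 for H1f2 (exact permutation p = 0.360 and 0.519, adjusted p = 0.882 for both). H4c9 had r = 0.664 with haemoglobin and 0.736 with platelet markers (exact permutation p = 0.109 and 0.0520, adjusted p = 0.621 and 0.416), and the second of these was 0.02 without the 2 farthest libraries. The relation with haemoglobin of the largest size, of the opposite sign, was that of the rare gene H2ac8, with r = -0.876 and rho = -0.919 (exact permutation p = 0.0111 and 0.00714, adjusted p = 0.222 and 0.143). The part of platelet RNA in these histone levels was not tested.

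Markers of proliferating cells were read as well. The 22 proliferation markers, Mki67, Top2a and Pcna among them, summed to 85.0, 245 and 416 CPM in treated libraries and to 292, 213, 180.3 and 124 CPM in control 1 to control 4. These sums are CPM of library totals that include haemoglobin, 28.2% and 20.1% in control 3 and control 4. The part of proliferating cells in the histone values was not tested. Of the 21 tested, 10 had a log2 fold change above 0 and 11 below, against 48.2% of all genes below 0. The edgeR test called 0 of them. At an unadjusted p under 0.05 it had 2 higher and 0 lower, against 3.7% and 3.13% of all genes. Without control 3 and control 4 it had 6 higher and 0 lower, against 6.41% and 2.16% of all genes. DESeq2 called 1 as higher (Tk1, adjusted p = 0.0135, chosen after its value was seen), against 0.441% of all genes with an adjusted p. Pcna, the sliding clamp of DNA replication, had 26.5 ± 9.56 CPM over the 7 treated (SD) and 39.0 ± 9.23 CPM over the 4 control libraries (SD). Mcm7, a subunit of the replicative helicase, had 23.4 ± 12.9 CPM in treated mice and 31.3 ± 17.2 CPM in control libraries, over the same libraries.

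Genes that process histone messages and handle histone proteins were read from 4 lists chosen by known role. Both edgeR and DESeq2 called 0 genes of each list. At an unadjusted p under 0.05 edgeR had 0 higher and 1 lower for message processing, 2 higher and 1 lower for chaperones and import, 1 higher and 1 lower for H2A.Z exchange, and 0 for the variants outside the selection. Of all genes tested, 3.7% were higher and 3.13% lower at that threshold. The log2 fold change was below 0 for 48.2% of all genes, with a median of 0.03. Without control 3 and control 4 it was below 0 for 44.9%, with a median of 0.10. The lists below are to be read beside these values. Of 12 tested genes of histone message processing, 6 had a log2 fold change above 0 and 6 below, with a median of 0.02, and 0.01 without control 3 and control 4. Slbp, whose protein binds the stem-loop, had 136 ± 30.9 CPM over the 7 treated (SD) and 167 ± 55.4 CPM over the 4 control libraries (SD). The Sm protein gene Snrpb had 256 ± 46.6 CPM in treated mice and 317 ± 10.6 CPM in control libraries, and 6 of 7 treated libraries lay below all controls. Cpsf2, a subunit of the complex that cuts messages at their 3' end, had 70.1 ± 23.7 CPM in treated mice and 116 ± 34.9 CPM in control libraries (edgeR, log2 fold change -0.73 ± 0.30, adjusted p = 0.671).

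Histone chaperones and import factors had 18 of 26 tested genes above 0 and 8 below, with a median of 0.29. With the header letters as a covariate, which leaves treated 1 alone against the controls, 12 were above and 14 below, with a median of -0.24. Without control 3 and control 4 there were 16 above and 10 below, with a median of 0.05. Supt16, a subunit of the FACT chaperone, had 9.0 to 42.8 CPM in treated libraries, with a median of 31.4, and 11.4, 6.23, 0.801 and 9.45 CPM in control 1 to control 4. In this gene 6 of 7 treated libraries lay above all controls, at a log2 fold change of 1.92 ± 0.65 (edgeR, adjusted p = 0.626). Without control 3 and control 4 it was 1.62 ± 0.65 (edgeR, adjusted p = 0.503). The most abundant members of the list, Rbbp4 and Ptma, had 181 ± 24.6 and 134 ± 34.5 CPM over the 7 treated (SD) and 201 ± 59.3 and 214 ± 51.6 CPM over the 4 control libraries (SD).

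For H2A.Z exchange, 3 of 10 tested genes were above 0 and 7 below, with a median of -0.22, and without control 3 and control 4 there were 2 above and 8 below, with a median of -0.39. Ep400, the ATPase of a complex that deposits H2A.Z, had 64.9, 73.2 and 92.9 CPM in treated libraries and 58.3, 35.4, 60.1 and 49.8 CPM in control 1 to control 4. All 7 treated libraries were above all 4 controls, and the log2 fold change was 0.57 ± 0.23 (edgeR, adjusted p = 0.652). Vps72, which encodes an H2A.Z chaperone, had 38.0 ± 7.30 CPM over the 7 treated (SD) and 48.5 ± 13.4 CPM over the 4 control libraries (SD). Of the 4 tested histone genes whose symbols lie outside the selection, H2aj had 117 ± 26.4 CPM in treated mice and 144 ± 43.4 CPM in control libraries, and Hp1bp3, a relative of H1, had 90.2 ± 34.7 CPM in treated mice and 111 ± 14.8 CPM in control libraries, over the same libraries.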

How the data were processed

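RNA of sorted eosinophils was sequenced in 11 libraries, 7 treated and 4 control, grouped by the treatment label. The authors deposited raw read counts per Ensembl gene in 1 table. The submitters' processing notes name bcl2fastq 2.20.0.422, HISAT2 2.10, SAMtools 1.15.1 and the build GRCm38. Nothing is stated in the sources used here about the read counter, its strand setting or the annotation release. The table had 1 row without a gene name, with 0 counts, which was left out.

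Tests on the counts used edgeR 4.0.16 and R 4.3.3 (quasi-likelihood test, robust, TMM scaling, filterByExpr by group, Benjamini-Hochberg adjustment over all 11389 genes at 0.05). Reads had no molecular identifiers, so intervals and floors cover counting error only. Levels per kilobase used exon lengths of GENCODE M21, whose coordinates were those of the table for all 74 genes. Permutation tests used scipy 1.17.1. Summed levels are CPM of the library total, and those of single genes are TMM-scaled CPM.

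Alternatives were DESeq2 1.42.0, its size factors, upper-quartile scaling, limma-voom (limma 3.58.1), no filter, a filter with a minimum count of 50, a replicate block, the header letters as a covariate, a transcript length offset, other denominators, leaving out each library and, chosen after seeing the data, leaving out control 3 and control 4. The rule for named genes took every linker and variant gene past the filter, the 3 most abundant tested replication-dependent genes of each core family, the 5 genes with the smallest p and, of each list, the 2 most abundant genes and that with the smallest p. Hist1h4n, H4c8, H4c4, H4f16 and the genes below the filter fell outside the rule and were chosen after their values were seen. The members, lists and shares within a library were chosen with earlier results of these data known.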

Additional observations from a re-analysis of the deposited data

Results flagged for a closer look

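In 4 of 44 groups of values (the 20 tested histone genes and the summed core and linker levels, in treated and in control libraries) a library stood far from the others of its group. Chance alone gives such a gap in about 5% of groups where values are normally spread and groups independent. CPM values of genes from the same libraries need not meet this, so the 4 groups cannot be weighed against that rate. In treated 2, H1f2 had 131 CPM, H2bc4 165 CPM and H4c8 3.16 CPM, each well above the other 6 treated libraries. Treated 2 also had the highest platelet marker sum of the treated libraries, 3458 CPM, whose part was not tested. In control 2, H4c4 had 3.25 CPM, with 0.401 CPM or less in the other 3 controls.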

How the results depend on the processing

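Leaving out any library gave 0 to 0 genes and 0 to 0 histone genes called by edgeR, in either direction. The core median log2 fold change was then -0.91 to -0.47, the linker median -1.50 to -1.12, the summed core level -0.53 to -0.32 and the summed linker level -1.37 to -1.09 (log2, treated minus control), and the replication-dependent share -15.6 to -4.65 percentage points. Signs changed for H2ax (-0.44 to 0.0065), H2ac15 (-0.31 to 0.74), H2bc6 (-0.46 to 0.37) and H4f16 (-0.36 to 1.93). DESeq2 called 57 genes higher and 22 lower, 1 of them a histone gene. The fit with the header letters rests on treated 1 alone against the controls. Its core median was -1.14 and its linker median -2.01, and H2ac15 (-0.26), H2bc6 (1.43), Hp1bp3 (0.16) and Mcm7 (0.17) changed sign. Without control 3 and control 4, chosen after seeing the data, the core median was 0.20, the linker median -0.73 and the share difference 4.85. Signs then changed for H2ax (0.20), H2ac6 (1.58), H2bc4 (1.53), H2bc6 (0.15), H4c9 (2.91), H4c3 (0.61), H4c8 (6.19, a fitted value and no bound), Hist1h4n (2.69), H4f16 (-0.83), H2aj (0.033), Hbb-bs (2.18), Hba-a1 (2.16), Ppbp (3.30), Pf4 (2.67) and Mcm7 (0.44). With limma-voom they changed for H2ax (0.054), H2ac6 (1.06), H4c9 (1.36), H4c8 (1.19), Hist1h4n (0.38), H4f16 (-0.39), Ppbp (0.98), Pf4 (0.40) and Mcm7 (0.013), with the length offset for H2ax (0.019), and with no filter for H2bc6 (0.033). The replicate block, over the 8 libraries that share numbers 1 to 4, called 0 genes, with a core median of -0.53 and a linker median of -1.29, and H2bc6 (0.33) and Ppbp (0.10) changed sign. Same-numbered libraries did not deviate together (correlations -0.12 to 0.02), which gave no sign of pairs. These correlations cannot exclude pairs, because control 3 and control 4 differed widely from control 1 and control 2. The cause of these changes was not tested. Genes near the floor of 3 counts are limited by depth.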

Other observations

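Beside the histone genes, the processed pseudogene Hist1h2al had 920 counts over the 7 treated and 700 over the 4 control libraries. By library it had 73 to 171 counts in treated libraries and 98, 306, 119 and 177 counts in control 1 to control 4. These are raw counts of libraries of unequal depth, with the lowest totals in control 3 and control 4, so the sums do not compare levels. How reads shared with other H2A genes were counted is not given in the sources used here.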
